A study of Mus musculus with 16 samples.

Results

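The 10 genes described here are markers of astrocytes: Gfap, Slc1a2, Slc1a3, Aqp4, Aldh1l1, Gja1, S100b, Gpr37l1, Aldoc and Glul. They were taken from a fixed list of names, and every probe whose accession maps to one of them in RefSeq was followed. All 10 were measured, by 17 probes, out of 45622 distinct genes or features on the array, of which 26479 were bright enough to be tested. RNA from the whole brain of C57BL/6 mice at postnatal day 1 was labelled with Cy3 and hybridised to 16 single-colour Agilent arrays, 1 animal per array and 4 animals in each of 4 groups. The heated group came from freeze-dried sperm kept at 95 °C for 1 h, the irradiated group from freeze-dried sperm X-irradiated at 5 Gy, the freeze-dried group from freeze-dried sperm with neither treatment, and the fresh group from sperm that were not freeze-dried. The treatments were thus given to the fathers' sperm and the measurements made in the offspring. Each neonate carries a number in the labels, but whether animals share a litter is not stated, so the p-values measure the spread between these animals only and would be too small if littermates were among them.

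Astrocytes are the glia that clear glutamate from synapses, buffer potassium and water, supply metabolites to neurons and cover blood vessels with their endfeet. In the mouse forebrain they arise around birth, when radial glia stop producing neurons and the new astrocytes divide and mature over the following weeks. Genes such as Slc1a3 are already strong in radial glia, whereas Gfap, Slc1a2 and Aqp4 increase as astrocytes mature. In RNA from whole brain, fewer cells of a type and less RNA per cell cannot be told apart.

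Levels are given as the log2 of the processed signal minus the log2 of the 75th percentile of the same array, so that a level of 0 equals that percentile. They compare arrays for a given probe and do not compare genes with each other. Between 59.9% and 66.1% of the probes were well above background on each array, the 75th percentile ranged from 720 to 958 signal units, no spot was saturated, and all 17 probes of the astrocyte genes were well above background on all 16 arrays. Y-linked transcripts, which mark male pups, were high on all 4 freeze-dried arrays and on heated 4, and low on heated 1, 2 and 3. They were also low on fresh 1, fresh 3 and irradiated 4. There were 2 slides. All 4 heated arrays, with irradiated 3 and 4 and fresh 3 and 4, were on slide 2, and all 4 freeze-dried arrays, with irradiated 1 and 2 and fresh 1 and 2, were on slide 1, so that heated and freeze-dried arrays shared no slide. Hoxb5, a gene of the hindbrain and spinal cord, was between -7.75 and -6.05 in heated 2, heated 4, freeze-dried 2 and fresh 2, against -1.61 to 1.12 on the other 12 arrays, and Pcp2, a gene of cerebellar Purkinje cells, was at -2.55 and -3.73 in heated 2 and heated 4, against 0.81 to 1.24 elsewhere. All 4 arrays thus held less Hoxb5 RNA, and only heated 2 and heated 4 also held less Pcp2 RNA. The heated differences of several astrocyte genes are also given without the 4 arrays low in Hoxb5, among them those whose call ended. That leaves heated 1 and 3 beside freeze-dried 1, 3 and 4 and fresh 1, 3 and 4. Heated 1 and 3 were low and the freeze-dried arrays high in Y-linked transcripts, and they shared no slide. Heating, sex and slide thus cannot be told apart in that heated minus freeze-dried comparison.

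In the fit without a slide term, brains of the heated group had more RNA of 3 astrocyte genes than brains of the freeze-dried group: Gpr37l1 at 2.04-fold, Gfap at 1.72-fold and Slc1a2 at 1.35-fold. The 2 groups shared no slide, and with slide as a block none of the 3 passed the threshold, nor did any other feature. These 3 of 10 genes passed an adjusted p of 0.05 in the limma fit over all 26479 features, where 3.86% of features were called in either direction and 2.5% were called higher. The other 7 did not pass, and their differences lay between -0.02 for Slc1a3 and 0.59 for Aqp4 on the log2 scale. The difference was positive for 9 of the 10 genes with a median of 0.25, beside a median of 0.018 over all features tested. With slide as a block it was positive for 7 of the 10 with a median of 0.12, beside -0.007 over all features. At an unadjusted p of 0.05 the count was 4 of 10, against 23.8% of all features. For 3 of the 10 every heated array was above every freeze-dried array, a pattern that 11.4% of all features showed.

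**Figure D1:**
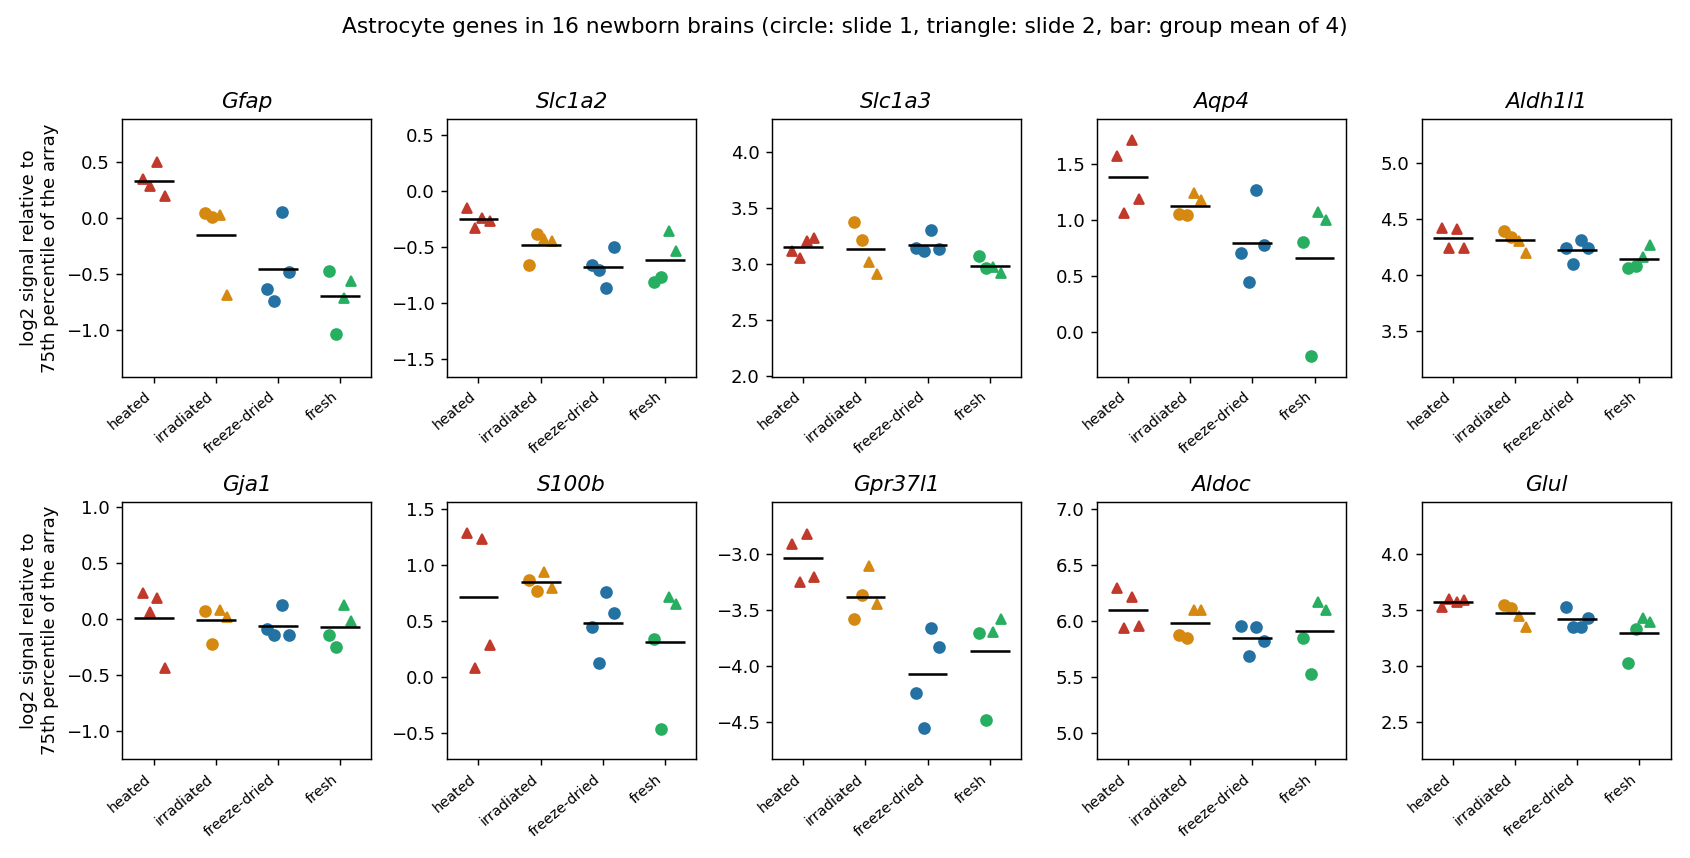
Level of the 10 astrocyte genes (vertical axis, log2 signal relative to the 75th percentile of the array) on each of 16 arrays, by group, with circles for slide 1, triangles for slide 2 and bars for the mean of 4 arrays. Every panel spans the same number of log2 units. Gfap, Slc1a2 and Gpr37l1 on the 4 heated arrays lie above all freeze-dried and all fresh arrays, whereas the groups of Gja1 and Slc1a3 lie close together.

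The 250 bases before and 50 bases after the annotated start of the 3 genes that were called, and of Slc1a3 as the transporter whose heated and freeze-dried levels lay closest, are shown so that the sequences near the starts of these genes can be set beside their levels. The sequences are RefSeq's, on GRCm38.p6, 5′ to 3′ on the gene's strand: Gfap at chr11:102897151-102897450 on the minus strand, Slc1a2 at chr2:102706188-102706487 on the plus strand, Gpr37l1 at chr1:135167632-135167931 on the minus strand and Slc1a3 at chr15:8710758-8711057 on the minus strand. Capitals mark matches, on either strand, to TTGGC (the half-site of NFI factors), TTCNNNGAA (a STAT site) or TGGGAA (an RBPJ site), all of them families with known roles in astrocyte differentiation.
Gfap: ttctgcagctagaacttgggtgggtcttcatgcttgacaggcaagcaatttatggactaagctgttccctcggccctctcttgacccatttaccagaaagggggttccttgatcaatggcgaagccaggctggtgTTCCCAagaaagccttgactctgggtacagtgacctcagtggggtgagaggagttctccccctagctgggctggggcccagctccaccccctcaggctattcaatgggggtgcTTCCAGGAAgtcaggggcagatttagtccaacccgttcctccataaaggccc
Slc1a2: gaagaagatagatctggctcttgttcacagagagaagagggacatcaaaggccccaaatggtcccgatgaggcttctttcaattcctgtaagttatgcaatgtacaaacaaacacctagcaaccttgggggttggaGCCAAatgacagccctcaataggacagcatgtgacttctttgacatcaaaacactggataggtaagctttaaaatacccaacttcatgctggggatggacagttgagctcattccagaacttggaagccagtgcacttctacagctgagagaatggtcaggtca
Gpr37l1: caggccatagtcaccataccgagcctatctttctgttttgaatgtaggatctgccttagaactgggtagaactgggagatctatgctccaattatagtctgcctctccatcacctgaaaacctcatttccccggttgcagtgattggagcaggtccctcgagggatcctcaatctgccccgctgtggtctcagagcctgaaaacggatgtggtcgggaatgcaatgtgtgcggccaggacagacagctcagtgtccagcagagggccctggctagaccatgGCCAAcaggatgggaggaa
Slc1a3: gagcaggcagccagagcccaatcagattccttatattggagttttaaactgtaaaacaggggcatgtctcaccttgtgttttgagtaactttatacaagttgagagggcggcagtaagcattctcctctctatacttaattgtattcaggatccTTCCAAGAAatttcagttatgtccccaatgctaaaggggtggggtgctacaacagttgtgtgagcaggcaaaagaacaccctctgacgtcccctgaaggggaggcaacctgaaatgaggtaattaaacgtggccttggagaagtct
The Gfap window holds 1 STAT match, at bases 249 to 257, and 1 RBPJ match, at bases 136 to 141 of the window. The Slc1a2 and Gpr37l1 windows each hold 1 NFI half-site, at bases 137 to 141 and at bases 282 to 286, and neither holds a STAT or RBPJ match. The Slc1a3 window holds 1 STAT match at bases 155 to 163. Of 32851 mouse promoter windows of the same length, 46.7% hold the NFI half-site, 8.3% the STAT letters and 25.6% the RBPJ letters, and no motif is shared by all 3 called genes. Windows were searched for 9 of the 10 genes, of which 5 hold the NFI half-site, 3 the STAT letters and 4 the RBPJ letters. Entries of the 10 genes on 1 chromosome were left out before the search, and Aqp4 has no window here. A match describes these letters only.

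Glutamate uptake was covered by 3 members. Slc1a2 encodes GLT-1, the glutamate transporter that takes up most glutamate in the adult forebrain. Its level was -0.15, -0.33, -0.24 and -0.27 in the heated brains, against -0.66, -0.71, -0.87 and -0.50 in the freeze-dried brains. Every heated brain was above every freeze-dried brain, and the heated brains were also the most tightly grouped. The difference was 0.43 on the log2 scale (SE 0.10, limma adjusted p = 0.036, n = 4 and 4). Irradiated brains had -0.66, -0.38, -0.43 and -0.45, and fresh brains had -0.81, -0.77, -0.36 and -0.54. The fresh brains split by slide, with fresh 3 and 4 above fresh 1 and 2 by 0.34 on average. Against fresh, the heated difference in Slc1a2 was 0.37 (SE 0.10, limma adjusted p = 0.0734), with no overlap between the groups.

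Slc1a3 encodes GLAST, the transporter shared by astrocytes and radial glia. Its level averaged 3.15 ± 0.08 in heated brains, 3.13 ± 0.20 in irradiated brains, 3.17 ± 0.09 in freeze-dried brains and 2.98 ± 0.06 in fresh brains (SD, n = 4 each). The heated and freeze-dried groups overlapped, and their difference was -0.02 (SE 0.09, limma adjusted p = 0.914). Freeze-dried brains, at 3.11 to 3.30, lay above fresh brains, at 2.92 to 3.07, without overlap. That difference was 0.19 (SE 0.09) with an unadjusted p of 0.0472 in the limma fit and an adjusted p of 0.497. All freeze-dried arrays were on slide 1. With slide as a block, slide 2 minus slide 1 was -0.2 for Slc1a3 (limma unadjusted p = 0.0154, adjusted p = 0.114). No astrocyte gene then had an unadjusted p under 0.05 for freeze-dried minus fresh.

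Glul, glutamine synthetase, turns the glutamate that astrocytes take up into glutamine. Its level was 3.53, 3.60, 3.57 and 3.59 in heated brains, against 3.53, 3.35, 3.35 and 3.43 in freeze-dried brains and 3.03, 3.33, 3.43 and 3.39 in fresh brains. The heated group was the tightest of all groups of this gene, with an SD of 0.03, and touched the freeze-dried group only at freeze-dried 1. The heated brains differed from the freeze-dried brains by 0.16 (SE 0.08, limma adjusted p = 0.251) and from the fresh brains by 0.28 (SE 0.08, limma adjusted p = 0.0808), the second with no overlap.

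Gfap encodes the intermediate filament protein by which astrocytes are usually recognised. Its level was 0.35, 0.29, 0.50 and 0.20 in heated brains, 0.05, 0.01, 0.03 and -0.68 in irradiated brains, -0.63, -0.74, 0.06 and -0.48 in freeze-dried brains and -0.47, -1.03, -0.71 and -0.56 in fresh brains. All 4 heated brains were above all 12 others, and freeze-dried 3 and irradiated 4 each lay with the brains of another group. The heated group rose by 0.78 relative to freeze-dried (SE 0.19, limma adjusted p = 0.039) and by 1.03 relative to fresh (SE 0.19, limma adjusted p = 0.0132), which is 2.04-fold. In the order of the group means, 0.33 in heated, -0.15 in irradiated, -0.45 in freeze-dried and -0.69 in fresh brains, no neighbours differed past the threshold. The irradiated minus heated difference was -0.48 (limma adjusted p = 0.272), the irradiated minus freeze-dried difference 0.30 (limma adjusted p = 0.716) and the freeze-dried minus fresh difference 0.25 (limma adjusted p = 0.688).

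S100b, a calcium-binding protein of astrocytes and ependymal cells, varied most within groups. Its level was 1.29, 0.08, 1.23 and 0.29 in heated brains, against 0.45, 0.13, 0.76 and 0.57 in freeze-dried brains. The heated group split into heated 1 and 3, above every other brain in the study, and heated 2 and 4, the arrays low in Hoxb5 and Pcp2. Irradiated brains, at 0.77 to 0.94, lay above all freeze-dried brains and above all fresh brains, which were at -0.46 to 0.72. The heated minus freeze-dried difference was 0.25 (SE 0.29, limma adjusted p = 0.635), and -0.15 with slide as a block. Without the 4 arrays low in Hoxb5 the S100b difference was 0.67 (SE 0.12). Its unadjusted p was 0.000273 and its adjusted p 0.134 in the limma fit. The heated minus fresh difference of S100b was 0.41 (SE 0.29, limma adjusted p = 0.488), and 0.69 without those arrays. The part of the caudal RNA content in this split was not tested beyond leaving those arrays out.

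Aqp4 encodes the water channel of astrocytic endfeet and of ependymal cells. Its level was 1.57, 1.06, 1.71 and 1.18 in heated brains, 1.05, 1.04, 1.24 and 1.17 in irradiated brains, 0.70, 0.44, 1.26 and 0.77 in freeze-dried brains and 0.80, -0.22, 1.07 and 1.00 in fresh brains. Freeze-dried 2 and fresh 2, both low in Hoxb5, were the 2 lowest of the 16 arrays. The heated minus freeze-dried difference was 0.59 (SE 0.25, limma adjusted p = 0.172) and the heated minus fresh difference 0.72 (SE 0.25, limma adjusted p = 0.146). With slide as a block the first of these Aqp4 differences was 0.13 (SE 0.32). Without the 4 arrays low in Hoxb5 they were 0.73 (SE 0.16, limma adjusted p = 0.147) and 0.68 (SE 0.16, limma adjusted p = 0.182).

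Gja1 encodes connexin 43, the gap junction protein that couples astrocytes. Its level averaged 0.01 ± 0.31 in heated brains, -0.01 ± 0.14 in irradiated brains, -0.06 ± 0.13 in freeze-dried brains and -0.07 ± 0.16 in fresh brains (SD, n = 4 each). The spread of the heated group came mainly from heated 4, at -0.44, with the other heated brains at 0.06 to 0.23. No comparison of Gja1 had an adjusted p under 0.769 in the limma fit, and the differences ran from -0.02 to 0.08. Without the 4 arrays low in Hoxb5, heated 4 among them, Gja1 differed by 0.25 between heated and freeze-dried brains (SE 0.12, limma adjusted p = 0.387) and by 0.22 between heated and fresh brains (SE 0.12, limma adjusted p = 0.622).

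Aldh1l1, the folate enzyme used as a general astrocyte marker, and Aldoc, the aldolase isoform of astrocytes and of some Purkinje cells, covered metabolism. Aldh1l1 averaged 4.33 ± 0.10 in heated brains, 4.31 ± 0.08 in irradiated brains, 4.22 ± 0.09 in freeze-dried brains and 4.14 ± 0.09 in fresh brains (SD, n = 4 each). It was the steadiest of the 10, and its largest difference, heated minus fresh, was 0.19 (SE 0.07, limma adjusted p = 0.173). Aldoc was at 6.30, 5.94, 6.22 and 5.96 in heated brains, against 5.96, 5.69, 5.95 and 5.82 in freeze-dried brains. The groups overlapped only in that heated 2 lay just below freeze-dried 1 and 3, while heated 4 was level with freeze-dried 1 at this precision. The Aldoc difference was 0.25 (SE 0.13, limma adjusted p = 0.267), and 0.35 (SE 0.12, limma adjusted p = 0.257) without the 4 arrays low in Hoxb5. With slide as a block, slide 2 exceeded slide 1 for Aldoc by 0.34, with an adjusted p of 0.055 for the slide in the limma fit. The heated minus freeze-dried difference of Aldoc was then -0.09, opposite in sign to that without the block.

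Gpr37l1, an orphan receptor of astrocytes and Bergmann glia, was the member with the largest heated difference and the dimmest. Its probe read 112, 89, 125 and 83 signal units in heated brains and 49, 40, 71 and 62 in freeze-dried brains before scaling. On the log2 scale these were -2.91, -3.25, -2.82 and -3.21 in heated brains, against -4.24, -4.55, -3.66 and -3.83 in freeze-dried brains. Irradiated brains had -3.58, -3.37, -3.11 and -3.45, and fresh brains had -3.71, -4.48, -3.70 and -3.58. Heated brains lay above all freeze-dried and all fresh brains, and irradiated brains above all freeze-dried brains; irradiated 1 and fresh 4 shared the value -3.58 at this precision. The heated minus freeze-dried difference was 1.03 (SE 0.21, limma adjusted p = 0.021). Against fresh it was 0.82 (SE 0.21, limma adjusted p = 0.0527).

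Against fresh, 1 of the 10 genes passed in the heated group, Gfap, where 2.93% of all features were called. All 10 differences were positive, with a median of 0.32 beside 0.032 over all features. In 4 genes, Gfap, Slc1a2, Gpr37l1 and Glul, the heated brains lay above the fresh brains without overlap, which 7.53% of all features did, and 6 genes had an unadjusted p under 0.05, against 17.9% of features. The heated minus freeze-dried and heated minus fresh comparisons share the heated brains, so their values are given side by side and are not independent.

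Irradiated brains gave no called astrocyte gene in the limma fit. Relative to freeze-dried brains, 0 of 10 passed and 1, Gpr37l1, had an unadjusted p under 0.05. Over all features 0% were called and 7.22% had such a p. The Gpr37l1 difference was 0.69 (SE 0.21, unadjusted p = 0.00547, limma adjusted p = 0.685), and the median over the 10 genes was 0.17. S100b and Gpr37l1 lay above the freeze-dried brains without overlap, as did 2.79% of all features. Relative to fresh brains, 0 of 10 passed where 1.37% of all features did, 4 had an unadjusted p under 0.05 against 16.9% of features, and all 10 differences were positive with a median of 0.17. Those 4 were Gfap at 0.55 (SE 0.19), Gpr37l1 at 0.49 (SE 0.21), Aldh1l1 at 0.17 (SE 0.07) and Glul at 0.17 (SE 0.08). S100b and Gpr37l1 lay above the fresh brains without overlap, as did 5.54% of all features. Relative to heated brains, 0 of 10 passed where 1.01% of features did, and Gfap and Slc1a2 had an unadjusted p under 0.05, against 13.8% of features. Irradiated brains lay below heated brains without overlap in those 2 genes, as in 6.88% of features. The differences were negative for 9 of the 10 genes with a median of -0.11.

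Freeze-drying alone gave 0 of 10 called genes relative to fresh sperm in the limma fit, where 0% of all features were called and 9.92% had an unadjusted p under 0.05. Slc1a3, described above, was the 1 member with such a p and the 1 member without overlap, which 2.6% of all features were. With slide as a block no member had such a p. The differences ran from -0.20 for Gpr37l1 to 0.25 for Gfap, with a median of 0.10.

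**Figure D2:**
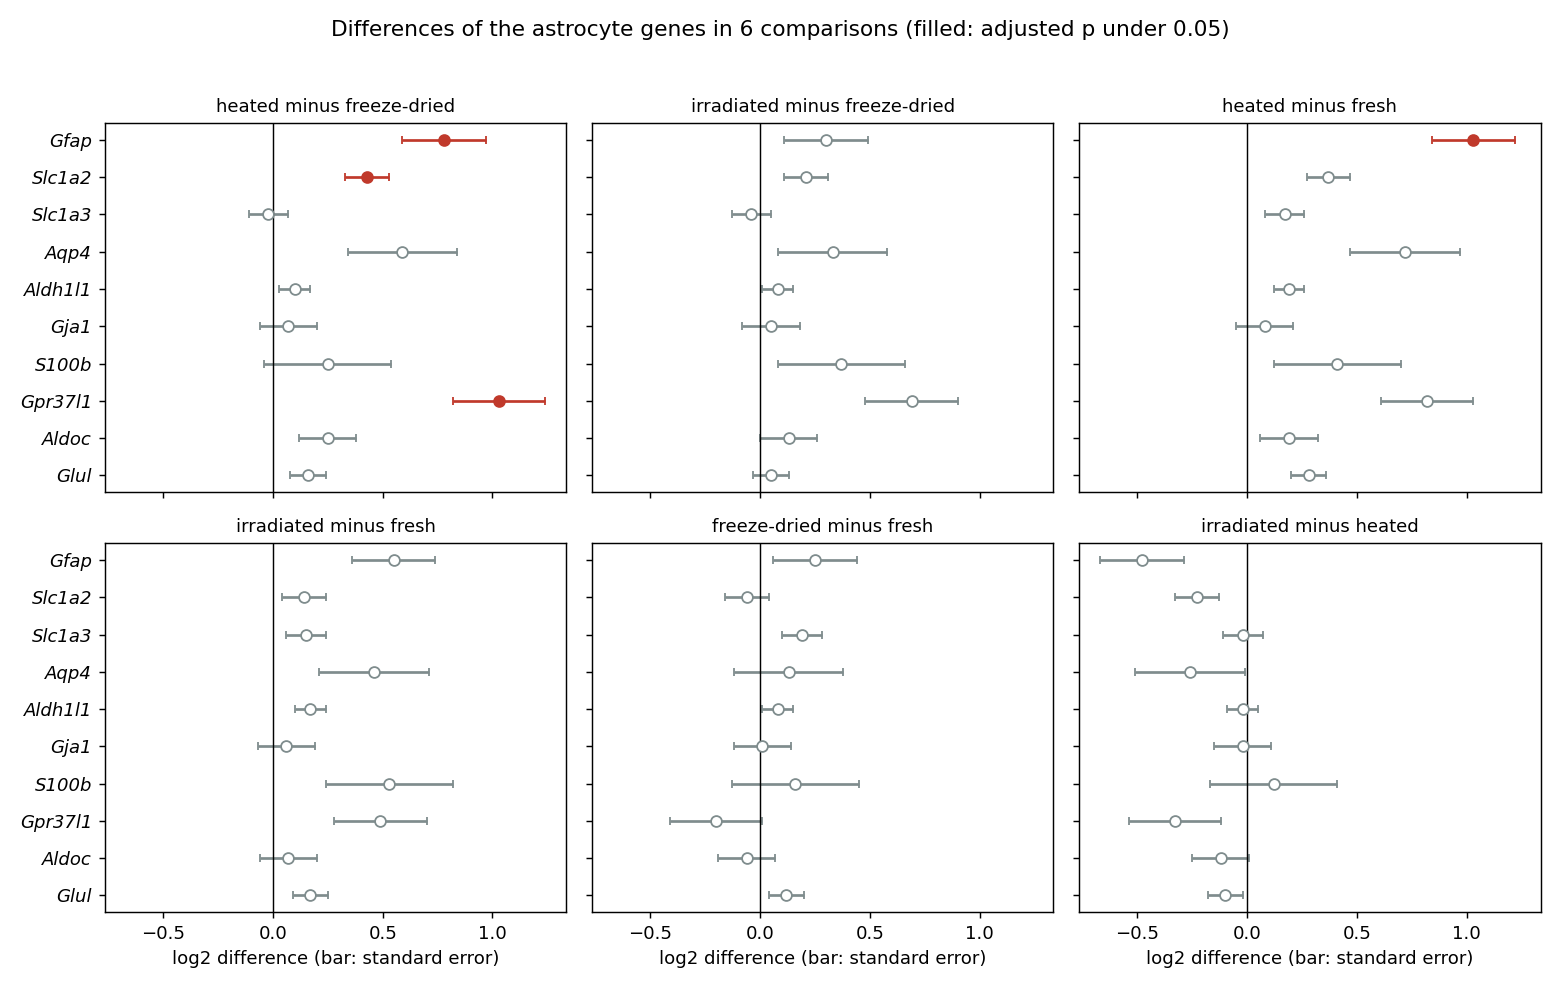
Log2 difference of each astrocyte gene (horizontal axis) in the 6 comparisons, with bars for the standard error from the limma fit. Filled points mark an adjusted p under 0.05: Gfap, Slc1a2 and Gpr37l1 in heated minus freeze-dried, and Gfap in heated minus fresh.

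A fit with slide as a block estimates the heated minus freeze-dried comparison through the fresh and irradiated arrays, which lie on both. In it, 0 of 10 astrocyte genes passed by limma, as did 0 of 26479 features, and the differences were 0.90 for Gfap (SE 0.28, unadjusted p = 0.00621, adjusted p = 0.357), 0.70 for Gpr37l1 (SE 0.28, unadjusted p = 0.0282, adjusted p = 0.544) and 0.22 for Slc1a2 (SE 0.13, unadjusted p = 0.0989, adjusted p = 0.742). Gfap thus differed by as much with the block as without it, whereas Slc1a2 was at 0.22 with it and 0.43 without it. Against fresh, Gfap stayed past the threshold with the block, at 1.09 (SE 0.22, limma adjusted p = 0.0339). Within slide 2 alone, where 4 heated and 2 fresh arrays can be compared, Gfap differed by 0.97 (SE 0.19, unadjusted p = 0.00131, limma adjusted p = 0.132) and Gpr37l1 by 0.60 (SE 0.15, unadjusted p = 0.00582, limma adjusted p = 0.19), with 0 of 10 called and 0 features called in all. Among fresh brains the leading digit of the neonate number goes with the slide, so the 2 cannot be told apart.

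The calls between heated and freeze-dried brains also changed when single arrays were left out, to 0 to 3 of the 10 and 181 to 1553 of all features. Leaving out freeze-dried 1, freeze-dried 2, heated 1, heated 2 or heated 3 left 0 of 10 called and leaving out heated 4 left 1, while the differences moved little: over these 6 arrays Gfap stayed between 0.68 and 0.83, Slc1a2 between 0.40 and 0.46 and Gpr37l1 between 0.87 and 1.09. Without the 4 arrays low in Hoxb5 the differences were 0.77 for Gfap, 0.48 for Slc1a2 and 1.05 for Gpr37l1, close to those with them. They rest on heated 1 and 3 and freeze-dried 1, 3 and 4, where sex and slide go with heating. In that fit 0 of 10 passed, and 12 of 26479 features did. For heated minus fresh, the count of 1 became 3 without fresh 3 and 2 without fresh 4, freeze-dried 2 or freeze-dried 3, and Gfap was at 1.00 (limma adjusted p = 0.21) without the 4 arrays low in Hoxb5. Y-linked transcripts, which mark male pups, differed between the groups by a median of -4.06 for heated minus freeze-dried. With that signal as a covariate the 3 differences were 0.86, 0.40 and 0.92, and 0 of 10 passed.

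**Figure D3:**
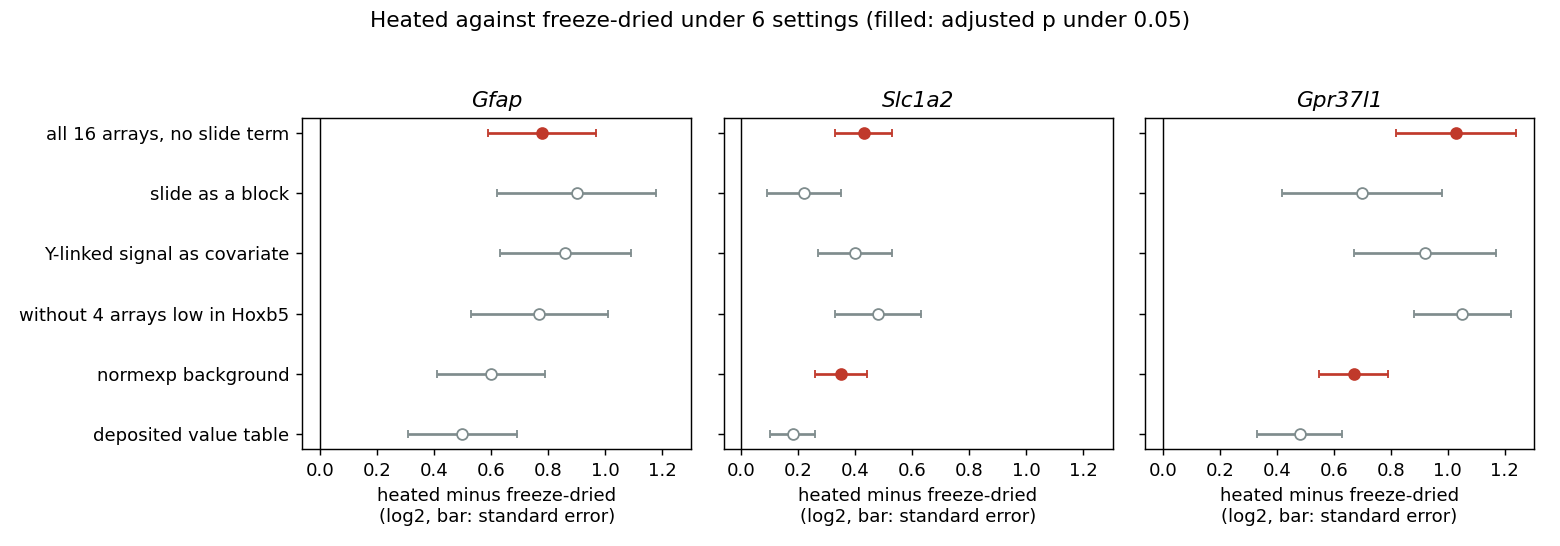
Heated minus freeze-dried log2 difference (horizontal axis) of the 3 called genes under 6 settings, with standard errors and filled points for an adjusted p under 0.05. All 18 values lie above 0; the slide block, the Y-linked covariate, the omission of 4 arrays and the deposited value table leave none of the 3 past the threshold.

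Array by array, heated 1 and heated 3 had all 10 genes above their own mean over the 16 arrays, by 0.38 and 0.40 on average. Heated 2 and heated 4 had 6 of 10 above, by 0.08 on average in each, with Gfap, Slc1a2, Gpr37l1, Aqp4 and Glul above in both and S100b below in both. Irradiated arrays had 6 to 9 of 10 above, and freeze-dried arrays 1 to 6. Fresh 1 and fresh 2 had 0 of 10 above, at averages of -0.19 and -0.53, and fresh 3 and 4, on the other slide, had 5 and 6 above, at -0.01 and -0.03. Freeze-dried 2 and fresh 2, both low in Hoxb5, were the 2 lowest arrays, at -0.33 and -0.53. The low-Hoxb5 arrays were thus the lowest of their groups in the heated, freeze-dried and fresh groups.

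**Figure D4:**
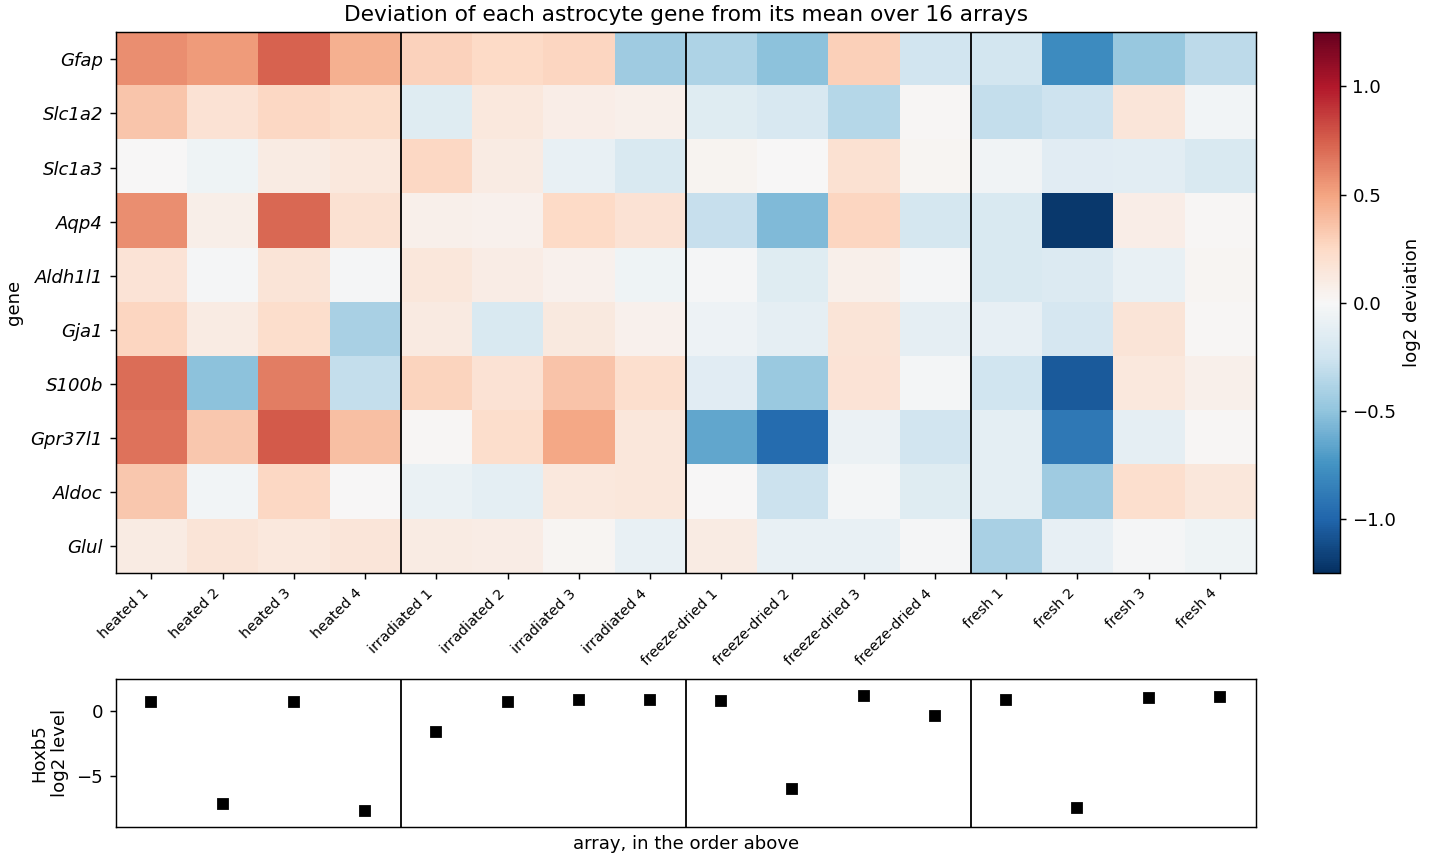
Deviation of each astrocyte gene from its mean over 16 arrays (colour, log2 units) with the arrays along the horizontal axis, and below it the log2 level of Hoxb5 on the same arrays. Heated 1 and 3 are above the mean in all 10 genes, fresh 1 and 2 in none, and S100b is low on all 4 arrays where Hoxb5 is below -6.

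The genes differed in how much they varied. The residual SD within groups was 0.436 for S100b, 0.381 for Aqp4, 0.321 for Gpr37l1 and 0.288 for Gfap, higher than in 79.5% to 92.3% of all features, whose median was 0.145. It was 0.091 for Aldh1l1, 0.110 for Glul and 0.122 for Slc1a3. Over 16 arrays, 42 of the 45 pairs of genes correlated positively, with a median Pearson r of 0.57. After each group's mean was removed, 37 pairs were positive, with a median of 0.43. The closest pair was Aqp4 with Gpr37l1, at 0.90 over the 16 arrays and 0.91 within groups, and Aqp4 with S100b reached 0.87 and 0.90. Slc1a3 stood apart: its r was -0.10 with Aldoc, -0.09 with Slc1a2 and -0.03 with Gja1, and its closest partner was Gfap at 0.58. The arrays share groups, slides and the caudal RNA difference, so these values describe the 16 arrays only.

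Among 15983 other genes, those most like the mean of the 10 over 16 arrays were Frmpd1 (Pearson r 0.967), Pamr1 (0.960), Lims2 (0.960), Bcan (0.958), Slc25a34 (0.957) and Fgf1 (0.952). Bcan, the proteoglycan brevican, belongs to the wider astrocyte list below. The 3 most like Gpr37l1 alone were Slc12a5 (0.945), Shfl (0.939) and Apba1 (0.937), of which Slc12a5 encodes a neuronal chloride transporter.

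Several genes had more than 1 probe. The second Gfap probe followed the brighter at an r of 0.91 and gave a heated minus freeze-dried difference of 1.07 (SE 0.20, limma adjusted p = 0.0149 over 34261 probes) and a heated minus fresh difference of 0.96 (SE 0.20, limma adjusted p = 0.0211 over the same probes). Gfap therefore passed by both of its probes in both comparisons. The second Aqp4 probe followed at 0.87 with a heated minus freeze-dried difference of 0.29 (SE 0.22), smaller than that of the brighter probe. The probes of Aldoc did not follow each other, at an r of 0.21, and the second gave a difference of -0.12 (SE 0.11), opposite in sign to that of the first. The other probes of Gja1 correlated with the brightest at 0.29 and -0.03 and gave 0.12 (SE 0.16) and 0.30 (SE 0.12), and those of Glul correlated at 0.59 and 0.48 and gave 0.19 (SE 0.09) and 0.03 (SE 0.05). Slc1a2, Slc1a3, Aldh1l1, S100b and Gpr37l1 each rested on 1 probe.

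A wider list of 50 astrocyte genes, all of them tested, was called at a share close to that of all features between heated and freeze-dried brains. In that comparison 2 of the 50 were called, both higher, where 3.86% of all features were called and 2.5% were called higher. The median was 0.17 with 39 of 50 positive, beside 0.018 over all features. Omitting the arrays low in Hoxb5 left 1 of 50 called. Under the slide block limma called 0 of 50, and 5 had an unadjusted p below 0.05. The median was then 0.09, with 40 of 50 positive. The called genes were Mlc1, a membrane protein of endfeet, at 0.42 (SE 0.10, limma adjusted p = 0.0374), and Dio2, the enzyme that activates thyroid hormone, at 0.46 (SE 0.11, limma adjusted p = 0.0377). The next by p were Htra1 at 0.44 and Mt1 at 0.54, with limma adjusted p of 0.0584 and 0.0627. Relative to fresh brains, 5 of 50 were called, all higher, where 2.93% of all features were called in either direction, and the median was 0.21 with 43 positive, beside 0.032 over all features: Clu, which encodes clusterin, at 0.34, Dio2 at 0.55, the metallothioneins Mt1 at 0.67 and Mt2 at 0.46, and Agt, which encodes angiotensinogen, at 0.94. Irradiated relative to fresh brains gave 0 of 50 called by limma, where 1.37% of all features were called. An unadjusted p below 0.05 was reached by 11 of the 50 and by 16.9% of all features, and the median was 0.15. The smallest p there was that of Plpp3, at 0.28 (limma adjusted p = 0.0564). Irradiated relative to freeze-dried brains gave 0 of 50 by limma, with 4 at such a p, against 7.22% of all features. Freeze-dried relative to fresh brains gave 0 of 50 by limma, also with 4, against 9.92% of all features.

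Genes known to rise in reactive astrocytes formed a separate list. Of 12 listed, 11 were tested, and heated brains gave 0 called by limma relative to freeze-dried, where 3.86% of all features were called. Of the 11, 6 had an unadjusted p under 0.05, against 23.8% of all features, 4 were positive and the median was -0.18. Omitting the arrays low in Hoxb5 gave a median of -0.07, with 5 of 11 positive. The smallest p values were those of Lcn2, a secreted lipocalin, at -0.77 (SE 0.21, limma adjusted p = 0.0563), and Vim, the filament protein vimentin of radial glia and reactive astrocytes, at -0.26 (SE 0.07, limma adjusted p = 0.0569). Relative to fresh, complement C4b rose in heated brains by 0.68 (SE 0.14, limma adjusted p = 0.0219) and the median was 0.09. Among 10 radial glia genes, Ptprz1 rose in heated relative to freeze-dried brains by 0.23 (SE 0.06, limma adjusted p = 0.0389), while Nes was at -0.26 and Pax6 at -0.33 without passing, and the list's median was -0.01. Neither the fit under the slide block nor the fit without the arrays low in Hoxb5 called a radial glia gene there, with 2 and 3 of the 10 at an unadjusted p below 0.05, and relative to fresh the 11 reactive genes gave 1 call in the first of these fits and 0 in the second.

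Markers of other cell types were examined in the same fit. Ependymal cells also express Gfap, S100b and Aqp4 in part, and 12 genes of their motile cilia formed 1 list. Relative to freeze-dried, 10 of the 12 were higher in heated brains and 7 were called, at a median of 0.52. Over all features 2.5% were called higher. Relative to fresh, 11 were higher and 7 were called, at a median of 0.60. Over all features 2.93% were called in either direction. With slide as a block 0 and 6 were called, at medians of 0.55 and 0.62, where 0 and 406 of all features were. When the arrays low in Hoxb5 were omitted 1 and 0 were called, at medians of 0.36 and 0.51, where 12 and 0 of all features were. Iqca, a gene of ciliated cells, differed from freeze-dried by 1.01 (SE 0.10, limma adjusted p = 0.00086) and Ccdc153, another, by 1.06 (SE 0.13, limma adjusted p = 0.00377). The summed linear signal of the 12, each in units of the array's 75th percentile, was 9.09 to 11 on heated arrays, 8.1 to 9.06 on irradiated arrays, 7.37 to 8.19 on freeze-dried and 6.84 to 7.73 on fresh arrays, with the heated arrays above all others, and Foxj1, their defining transcription factor, was detected on all arrays, at -0.05 to 0.57. For the 10 astrocyte genes that sum was 107 to 129 on heated and 105 to 114 on irradiated arrays. It was 92.3 to 108 on freeze-dried and 84.5 to 115 on fresh arrays. Most of it came from Aldoc, the brightest member, at a mean log2 level of 6.1 on heated arrays. The sum thus describes mainly that gene, whose 2 probes did not follow each other. The part of ependymal RNA in the astrocyte differences was not tested.

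For the lists that follow, the share of all features called between heated and freeze-dried brains was 3.86%, so that a single call in a list of about 10 genes says little about the list. Heated brains gave 1 called gene of 11 in the oligodendrocyte lineage, Pdgfra at 0.30, 1 of 10 microglial genes, Trem2 at 0.27, 1 of 10 neuronal genes, Syt1 at 0.29, and 2 of 10 endothelial genes, Kdr at 0.28 and Flt1 at 0.40, all higher. Limma called 0 genes in each of these 4 lists when the arrays low in Hoxb5 were omitted, with 2 to 6 genes per list at an unadjusted p below 0.05, and likewise 0 under the slide block, with 0 to 3 genes per list at such a p. The list medians were 0.15 for the oligodendrocyte lineage, 0.14 for microglia, 0.03 for neurons and 0.17 for endothelium. In the choroid plexus list Otx2 fell by 0.43, with a list median of 0.05. In the meningeal list Postn fell by 0.49, with a list median of -0.20. Limma called 0 genes in both lists under the slide block, at medians of -0.16 and -0.05. It also called 0 without the arrays low in Hoxb5, at medians of 0.21 and -0.18. Of 9 cerebellar genes 8 were lower and 2 were called, Zic2 at -0.81 and En2 at -0.57, with a list median of -0.81. That median was -0.04 without the 4 arrays low in Hoxb5. Neither that fit nor the slide block called a cerebellar gene. The 11 hindbrain Hox genes had a median of -1.81, and 0.23 without the 4 arrays. Of these Hox genes limma called 0, and 0 had an unadjusted p below 0.05. The part of these cell types in the astrocyte differences was not tested.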

How the data were processed

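Per the labels, 16 whole-brain RNA samples, 4 per group, were each run on 1 Cy3 array. Per the submitters' processing notes, the authors used Agilent Feature Extraction 11.0.1.1 to read the scans. The deposited scanner files hold fluorescence intensity, already background-subtracted per the file headers and not scaled between arrays, with flags of 0 or 1 for each spot. The deposited value table holds log2 signals whose column medians run from 9.335 to 9.348 and which follow each array's scanner values at a Pearson r of at least 0.999; how they were scaled and centred is not given in the sources used here.

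Control spots (3671 per array) and 2043 outlier-flagged values were left out, and spots of a probe were averaged. The log2 of each signal was taken minus that of the array's 75th percentile over 56605 probes. A probe was kept if some group had it well above background on each of its 4 arrays (34261 probes), the brightest represented a gene, and accessions were named through RefSeq, giving 26479 features, of which 15993 had a symbol. Group means were fitted over all 16 arrays with limma 3.58.1 in R 4.3.3 (12 residual degrees of freedom), with Benjamini-Hochberg adjustment over all features and a threshold of 0.05. The fit was tested on simulated data. In these features 28 values were missing, none of them of an astrocyte gene, and limma fits such a feature on the remaining arrays. The number of arrays limits the precision.

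The 10 genes and all gene lists were chosen with earlier results of these data known. The text names all 10, up to 4 genes of each other list by smallest p, and the genes most alike by Pearson r; Mt2 was named because it completes a count. Alternatives were other normalizations, filters, probe rules, blocks, covariates, the deposited table and leaving out arrays. The normexp alternative used the median spot signal, since the files used here hold no mean spot signal. Taking the 75th percentile over all spots was added after seeing the data, as were the values of the other gene lists with slide as a block or without the arrays low in Hoxb5.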

Additional observations from a re-analysis of the deposited data

Results flagged for a closer look

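In 40 groups of 4 arrays (10 genes in 4 groups), 3 arrays stood apart from the other arrays of their group by Dixon's criterion at 95%; chance alone flags about 1 in 20 groups. Gfap was at -0.68 in irradiated 4, against 0.01 to 0.05 in the other 3 irradiated brains. Slc1a3 was at 3.30 in freeze-dried 3, against 3.11 to 3.14 in the other 3 freeze-dried brains. Gpr37l1 was at -4.48 in fresh 2, an array low in Hoxb5, against -3.71 to -3.58 in the other 3 fresh brains.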

How the results depend on the processing

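Among the 10 astrocyte genes, 3 were called in heated minus freeze-dried and 1 in heated minus fresh. The first count was 1 without a filter on dim probes and 0 with slide as a block, with the Y-linked covariate, without the 4 arrays low in Hoxb5 and in the deposited value table. The second was 2 after quantile normalization and with probes well above background on all 16 arrays, and 0 within slide 2 and without the 4 arrays low in Hoxb5. For the wider list, 2 genes were called in heated minus freeze-dried. That count was 5 with normexp and with the mean of a gene's probes, 10 with only the 2 groups compared, 1 without the 4 arrays low in Hoxb5, and 0 without the filter, with the slide block, with the Y-linked covariate and in the deposited table. In heated minus fresh 5 were called; 8 were with normexp, 2 with the slide block, 3 in the deposited table, and 0 without the filter, within slide 2, without the low-Hoxb5 arrays and with only the 2 groups. In irradiated minus fresh the count of 0 became 2 with the slide block and 4 in the deposited table. Over all features these counts were 364, 651 and, of 24157 features in the deposited table, 939. Heated minus fresh gave 775 over all features, 684 after quantile normalization and 518 with normexp. It gave 406 with the slide block, 312 in the deposited table, 267 without the filter and 42 with only the 2 groups. With probes well above background on all 16 arrays it gave 784, and within slide 2 and without the low-Hoxb5 arrays 0. Leaving out 1 array at a time gave 0 to 3 astrocyte genes in heated minus freeze-dried and 1 to 3 in heated minus fresh. For the wider list these ranges were 0 to 8 and 0 to 9, and 0 to 1 in irradiated minus fresh. Over all features the ranges were 254 to 1127 in heated minus fresh and 54 to 539 in irradiated minus fresh.

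Over all features the heated minus freeze-dried count of 1021 was 609 without the filter, 142 with the Y-linked covariate, 12 without the low-Hoxb5 arrays, 2026 with only the 2 groups, 0 with the slide block and 0 in the deposited table, and 181 to 1553 with 1 array left out. The heated minus freeze-dried count was 1273 with normexp and 1010 with the mean of a gene's probes. The median of all features was 0.112 without the filter, against 0.018 with it. The log2 differences of Gfap, Slc1a2 and Gpr37l1 kept their sign in all 29 alternatives of that comparison, between 0.50 and 0.95, 0.18 and 0.50, and 0.48 and 1.16. They were called in 16, 17 and 20 of them. Their values in the deposited table, 0.50, 0.18 and 0.48, were the lowest; the cause was not tested. In heated minus fresh Gfap lay between 0.79 and 1.1 and was called in 28 of 30.

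Replicate numbers did not pair the samples: same-numbered deviations correlated between -0.39 and 0.38 over the 6 comparisons, although in heated minus fresh all 4 were positive, at 0.08 to 0.38, and at most 3 of 8 samples in a comparison correlated best with their own number. With the replicate block 2 astrocyte genes were called in heated minus fresh and 3 in heated minus freeze-dried. Over all features that block gave 696 and 1239 calls in these 2 comparisons. Gpr37l1 was at 0.82 in heated minus fresh (limma adjusted p = 0.0261).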
